A study of Mus musculus with 6 samples.

Results

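The genes described here are 10 genes used in liver biology to tell bile duct (biliary) cells, liver progenitor cells and epithelial cells from one another. They are the keratin genes Krt7, Krt8, Krt18 and Krt19, the transcription factor genes Sox9 and Sox4, the surface and secreted protein genes Epcam, Cdh1 and Spp1, and the vimentin gene Vim. They were chosen by name, and 9 of the 10 had a row among the 25330 genes of each deposited table. Epcam had no row and is not analysed here. The RNA came from AML12 cells, a non-tumour mouse hepatocyte line labelled WT, which was derived from a mouse carrying a transgene for transforming growth factor alpha. All cells were grown in DMEM/F12 with 10% fetal bovine serum, an ITS supplement and 40 ng/mL dexamethasone. The 3 control libraries were from cells kept under normoxia, at 21% oxygen. The 3 hypoxia-reoxygenation (H/R) libraries were from cells moved to medium lacking serum and glucose, held at 1% oxygen for 6 h, and reoxygenated for 2 h. Medium and oxygen both changed between the groups, so their effects cannot be told apart. The labels do not say whether replicates were separate cultures, so p-values measure only the spread between these libraries, which may be technical.

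Keratins form the intermediate filaments of epithelial cells by pairing a type II chain with a type I chain. Krt8 (type II) and Krt18 (type I) are the pair of adult hepatocytes, whereas Krt7 (type II) and Krt19 (type I) are added in bile duct cells and in progenitor cells. Sox9 is a transcription factor of bile duct and progenitor cells, and Sox4, of the SoxC group, acts with it in bile duct development. Epcam encodes an adhesion molecule of bile duct and progenitor cells. Spp1 encodes osteopontin, a secreted ligand of integrins and CD44, and Cdh1 encodes E-cadherin, which joins epithelial cells at adherens junctions. Vim encodes vimentin, the type III filament protein of mesenchymal cells and of many cell lines.

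Of the 9 measured genes, 8 rose after H/R and 1, Spp1, fell, at an adjusted p under 0.05 (edgeR quasi-likelihood, Benjamini-Hochberg over the 14020 genes tested). At the same threshold 31.0% of all tested genes were higher and 31.8% were lower, so that 62.8% passed in one direction or the other. The median log2 fold change of the 9 genes was 0.66, against -0.01 for all tested genes. A fold change of at least 2, which the study also required, was reached by Sox9 and Krt19, both higher, while of all tested genes 4.25% did so upward and 4.27% downward, 8.52% in either direction. Krt19 lay on that limit with a 2.00-fold increase and was under it in several other fits. In each of the 9 genes the 3 H/R libraries lay outside the range of the 3 control libraries, which held for 65.9% of all tested genes, 32.5% higher and 33.5% lower. The smallest p that an exact two-sided permutation test of 3 against 3 libraries can give is 0.1. Together the 9 genes took up 0.841% to 0.908% of all reads counted under normoxia, and 1.22% to 1.23% of those counted after H/R. In bulk RNA, a different number of cells expressing a gene and a different amount of RNA per cell cannot be told apart.

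**Figure D1:**
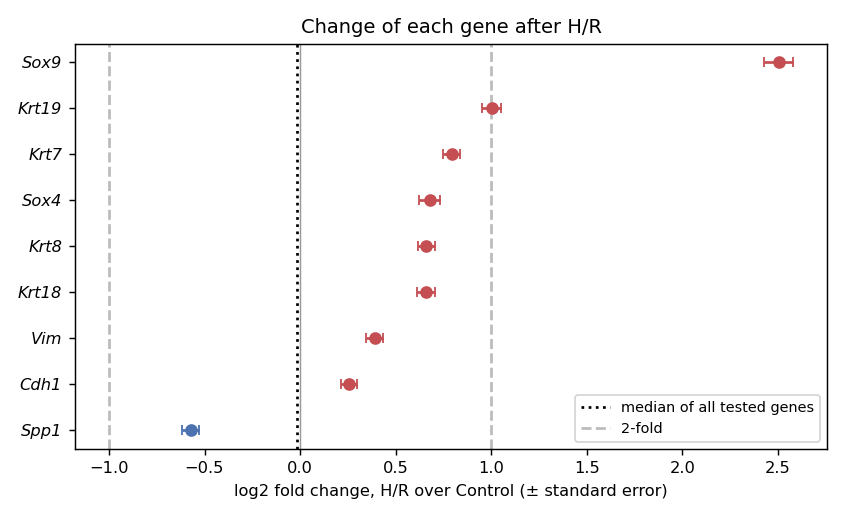
Log2 fold change of each measured gene, H/R over control (horizontal axis), with its standard error as a bar, from edgeR's quasi-likelihood fit (red higher, blue lower). Sox9 stood furthest to the right at 2.50, Krt19 lay on the 2-fold line at 1.00, and Spp1 was the one gene below 0, at -0.57, while the dotted line marks the median of all tested genes at -0.01.

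The keratin pair of hepatocytes rose by nearly the same factor. Krt8 (chromosome 15 of GRCm38, 101996711 to 102004342, minus strand) and Krt18 (chromosome 15, 102028216 to 102032026, plus strand) are neighbours with 23874 bases between them. Because they moved together, the 250 bases upstream of the RefSeq start site of each are shown here beside those of Spp1, the gene that fell. The sequences are RefSeq promoter windows of GRCm38.p6, written 5′ to 3′ on the strand of the gene, at chr15:102004343-102004592 (minus strand) for Krt8, chr15:102027966-102028215 (plus strand) for Krt18 and chr5:104434861-104435110 (plus strand) for Spp1. Capitals mark the letters CACCC or their reverse complement GGGTG, the core of the box bound by KLF and SP factors.
Krt8 upstream: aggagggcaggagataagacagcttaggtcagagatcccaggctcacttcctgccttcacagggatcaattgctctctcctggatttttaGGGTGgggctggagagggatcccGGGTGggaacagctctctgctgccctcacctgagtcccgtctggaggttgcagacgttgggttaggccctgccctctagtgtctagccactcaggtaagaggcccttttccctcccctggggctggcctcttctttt
Krt18 upstream: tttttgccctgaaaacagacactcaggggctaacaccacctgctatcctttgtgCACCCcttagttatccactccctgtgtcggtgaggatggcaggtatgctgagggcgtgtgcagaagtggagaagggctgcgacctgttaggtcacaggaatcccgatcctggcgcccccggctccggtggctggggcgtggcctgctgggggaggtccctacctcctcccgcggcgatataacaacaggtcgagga
Spp1 upstream: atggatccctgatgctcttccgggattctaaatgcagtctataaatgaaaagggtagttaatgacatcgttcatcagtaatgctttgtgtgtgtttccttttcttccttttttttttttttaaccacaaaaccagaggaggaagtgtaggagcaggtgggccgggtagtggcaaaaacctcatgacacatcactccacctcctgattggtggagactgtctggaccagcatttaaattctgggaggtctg
The letters CACCC were found on either strand at 2 places for Krt8, beginning 160 and 137 bases upstream of the start, at 1 place for Krt18, beginning 196 bases upstream, and at no place in the window shown for Spp1. The windows not shown held them at 2 places for Vim, 1 for Krt7 and 0 for Sox4. Epcam, which has no row, had 1, and a further window of Spp1 had 0. For Krt7 and Vim the RefSeq start (101412403 and 13574311) lies downstream of where the counted gene begins (101411043 and 13573927). Their windows and the further one of Spp1 thus lie within the counted gene and not upstream of it. The measured genes with the letters, Krt7, Krt8, Krt18 and Vim, rose, as did Sox4 without them. Whether the letters bear on the changes was not tested, and Krt19, Sox9 and Cdh1 had no window. They are frequent, since 52% of the 32851 RefSeq windows of the same length hold them. None of the 3 windows held ACGTG (the hypoxia response core, in 16.6% of all windows), TGANTCA (AP-1, in 6.75%) or ATTGTT (SOX, in 9.42%), each searched on both strands. Windows could be matched by symbol for 7 of the 10 genes, 8 windows in all, and none of the 8 held any of these 3 motifs. Such matches are letters in a window and not sites of binding.

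The normalized count of Krt8 was 51648, 49917 and 52578 under normoxia, in replicates 1, 2 and 3, and after H/R it was 82046, 81609 and 79840.5 in the same order. Every H/R library held more Krt8 than every control library. The mean rose from 51381 ± 1351 to 81165 ± 1168 (SD, n = 3 each), a change of 0.66 ± 0.045 on the log2 scale (fold change ± standard error, edgeR adjusted p = 6.77e-15). Krt18 had 32758, 30852 and 32738.5 normalized counts under normoxia and 50228.5, 51007 and 50827 after H/R. The groups were as clearly apart as for Krt8, and the log2 fold change was again 0.66 ± 0.045 (standard error, edgeR adjusted p = 8.70e-15). The pseudogene Krt8-ps on chromosome 7 has a row of its own, and reads of such copies may not have been separated. Krt8-ps held 347 to 403 counts in the control libraries and 520 to 566 in the H/R libraries, with a log2 fold change of 0.68.

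The keratins of bile duct and progenitor cells rose as well. Krt19 (chromosome 11, 100140810 to 100148665, minus strand) had a normalized count of 18271, 17869 and 20097 under normoxia and 38824, 36569 and 37215 after H/R. The lowest H/R library was well above the highest control library. The mean of Krt19 went from 18745.5 ± 1187 to 37536 ± 1161 (SD, n = 3 each), a change of 1.00 ± 0.049 on the log2 scale (standard error, edgeR adjusted p = 6.96e-19). Krt7 (chromosome 15, 101411043 to 101430313, plus strand) had 9309.7, 9032 and 9554 normalized counts under normoxia and 16197.5, 16217 and 15939 after H/R. Its groups did not overlap, and the log2 fold change was 0.79 ± 0.044 (standard error, edgeR adjusted p = 2.14e-17).

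**Figure D2:**
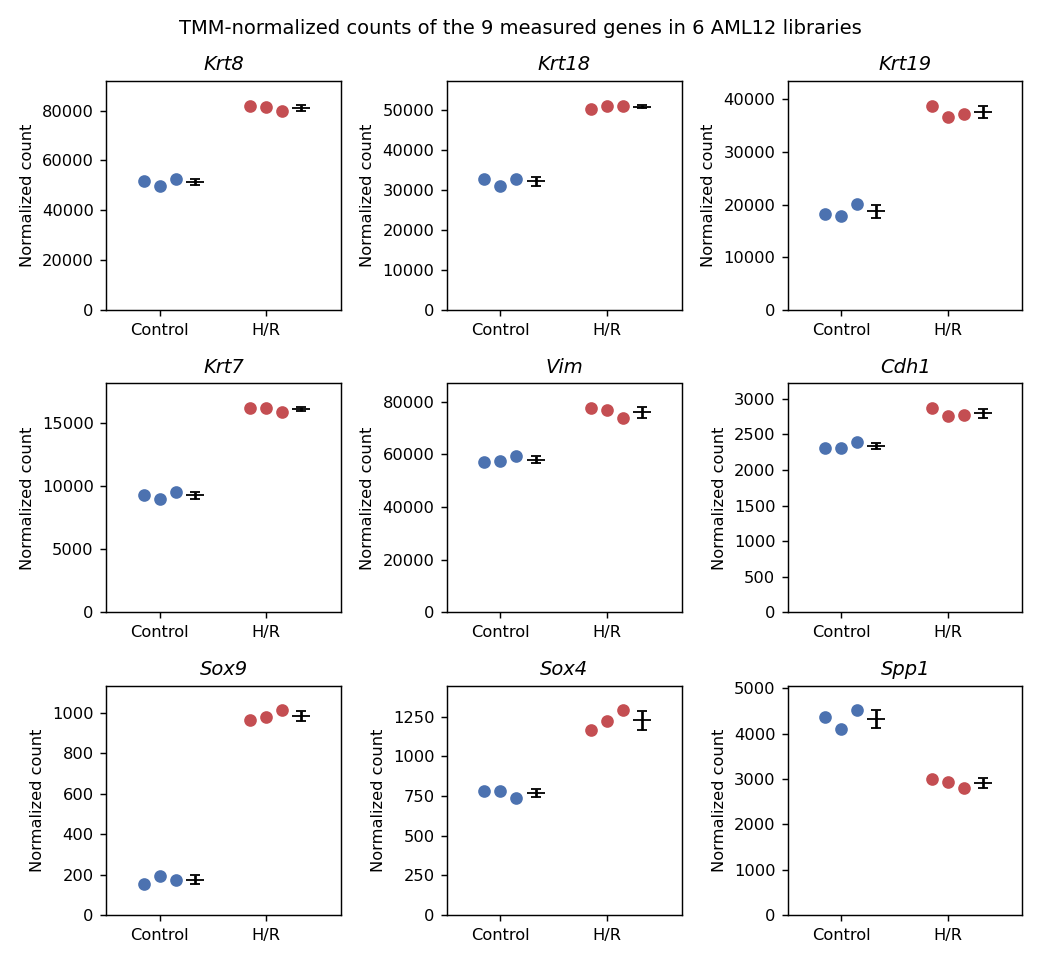
TMM-normalized counts (vertical axes, each starting at 0) of the 9 measured genes in the 3 control libraries (blue points) and the 3 H/R libraries (red points), in replicate order from left to right, with black marks for the mean and SD. In every panel the groups are apart, with Spp1 lower and the other 8 genes higher after H/R.

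Ratios of RPKM (reads per kilobase of gene length, scaled to the library total) were taken within each library, where they do not depend on library scaling. The ratio of Krt8 to Krt18 was 1.22, 1.25 and 1.25 under normoxia and 1.27, 1.24 and 1.22 after H/R. The groups overlapped, with means of 1.24 ± 0.0165 and 1.24 ± 0.0243 (SD, n = 3 each, exact permutation p = 1). The ratio of Krt19 to Krt18 was 0.421, 0.437 and 0.463 under normoxia and 0.583, 0.541 and 0.553 after H/R. In all 3 H/R libraries it exceeded each control library, with a mean difference of 0.34 on the log2 scale (exact two-sided permutation p = 0.1, the smallest possible). The type II keratins Krt7 and Krt8 together, relative to the type I keratins Krt18 and Krt19, had a ratio of 0.902 ± 0.0115 in control cells and 0.837 ± 0.0111 in H/R cells (SD, n = 3 each), without overlap (exact permutation p = 0.1). Vim relative to the sum of the 4 keratins had a ratio of 0.195 ± 0.00451 in control cells and 0.155 ± 0.00317 in H/R cells (SD, n = 3 each), also without overlap (exact permutation p = 0.1). The level of this ratio depends on gene length, and the lengths used for Vim and Krt7 exceed those of their longest transcripts. Its log2 difference between the groups was -0.33 with RPKM and -0.34 with counts in place of RPKM.

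**Figure D3:**
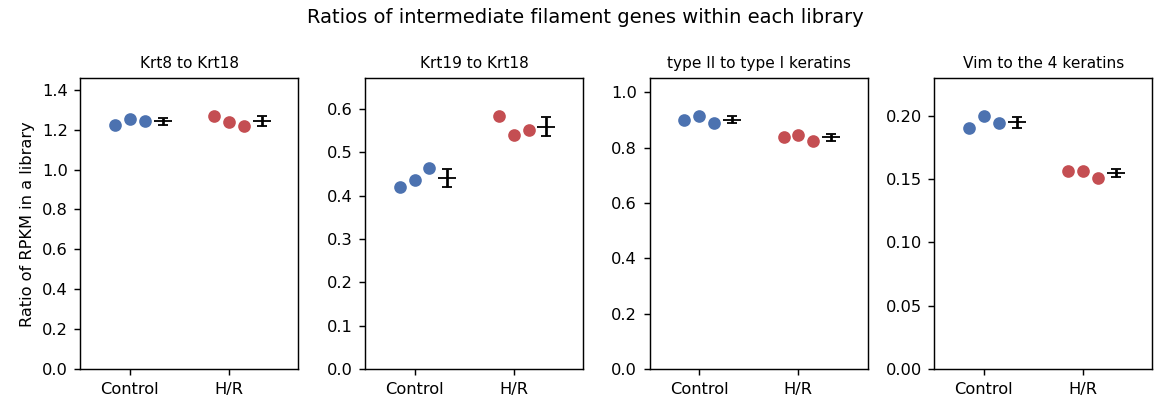
Ratios of RPKM within each library (vertical axes, each starting at 0) for 3 control libraries (blue) and 3 H/R libraries (red), with the mean and SD in black. The RPKM use the gene lengths of the deposited data, on which the level of a ratio depends. Krt8 to Krt18 had a mean of 1.24 in both groups, whereas Krt19 to Krt18 went from a mean of 0.440 to 0.559 and Vim to the 4 keratins from 0.195 to 0.155.

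Of all 9 genes, Sox9 changed most. Sox9 (chromosome 11, 112782224 to 112787760, plus strand) had 160, 200 and 186 counts under normoxia and 896, 909 and 1013 after H/R. Every H/R library was far above every control library. After normalization the mean went from 174 ± 21.8 to 986 ± 24.1 (SD, n = 3 each), a 5.67-fold increase, or 2.50 ± 0.076 on the log2 scale (standard error, edgeR adjusted p = 1.20e-24). Sox9 ranked 61 among the 14020 tested genes by log2 fold change. Sox4 (chromosome 13, 28948919 to 28953713, minus strand) had 782, 779 and 739 normalized counts under normoxia and 1166, 1224 and 1289 after H/R. The groups did not overlap, and the log2 fold change was 0.68 ± 0.055 (standard error, edgeR adjusted p = 7.73e-13). Exons of Gm26735 on the opposite strand cover 54.6% of the exon length of Sox4, and 98.8% of the exon length of Gm26735 lies in Sox4. The log2 fold change of Gm26735 was 0.69, and which of these genes the shared reads came from cannot be told apart.

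Spp1 was lower in every H/R library. Spp1 (chromosome 5, 104435118 to 104441050, plus strand) had 4364, 4100.2 and 4514 normalized counts under normoxia and 3010.3, 2933 and 2792 after H/R. The mean went from 4326 ± 209.6 to 2912 ± 111 (SD, n = 3 each), a change of -0.57 ± 0.045 on the log2 scale (standard error, edgeR adjusted p = 2.63e-13). This was 1.49-fold lower than in control cells. The row Gm42793 on the same strand shares 18.8% of the exon length of Spp1 and also had a log2 fold change of -0.57, so the reads of the shared exons are uncertain.

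The changes of E-cadherin and vimentin were the smallest. Cdh1 (chromosome 8, 106603351 to 106670246, plus strand) had 2315, 2314 and 2391 normalized counts under normoxia and 2869, 2753 and 2769 after H/R. Although the groups did not overlap, the increase was 1.20-fold (0.26 ± 0.043 on the log2 scale, standard error, edgeR adjusted p = 3.59e-06). Vim (chromosome 2, 13573927 to 13582826, plus strand) had 57153, 57386 and 59534 normalized counts under normoxia and 77559, 76882 and 73618 after H/R. Here too the groups were apart, with a 1.31-fold increase (0.39 ± 0.045 on the log2 scale, standard error, edgeR adjusted p = 2.85e-09). When scaled to library totals, the median of all tested genes moved to -0.12, and Cdh1 and Vim had log2 fold changes of 0.15 and 0.28, both still at an adjusted p under 0.05. The same scaling turned the share of higher genes among all called genes from 49.4% to 37.9%, while upper quartile scaling gave 41.6%. Among genes past the 2-fold limit too, the share was 49.9% with TMM, 37.0% with library totals and 41.3% with upper quartile scaling.

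Levels per length were compared by RPKM. In control cells the order was Krt8 (1394 ± 52.4), Krt18 (1123 ± 45.7), Vim (599 ± 23.0), Krt19 (495 ± 38.8), Spp1 (129 ± 7.60), Krt7 (64.6 ± 2.61), Cdh1 (25.1 ± 0.862), Sox4 (7.83 ± 0.131) and Sox9 (2.06 ± 0.268), each in RPKM with SD and n = 3. No neighbours in this order overlapped between libraries. Among the 25330 rows Krt8 ranked 28, Krt18 ranked 42, Vim ranked 94 and Krt19 ranked 114 by mean control RPKM, so Krt19, a bile duct keratin, was among the most abundant transcripts of the unstressed line together with the hepatocyte pair. Krt7 ranked 963 and Sox9 ranked 10060. In H/R cells Krt19 (921 ± 26.2 RPKM) stood above Vim (730 ± 13.5), and Krt7 (104 ± 0.220) stood above Spp1 (80.5 ± 2.34). Sox9 reached 10.9 ± 0.367 RPKM and overlapped Sox4 at 11.7 ± 0.688 (SD, n = 3 each). The order of a few genes depended on the length used. The tables give Vim a length of 4743 bases and Krt7 a length of 7055, whereas their longest annotated protein-coding transcripts have 2193 and 4094. With transcript lengths, a choice made after the values were seen, Vim overlapped Krt8 in control cells (1296 ± 49.7 and 1285 ± 48.3 RPKM) and overlapped Krt18 in H/R cells, and it stood above Krt19 in both. Spp1 stood above Krt7 in control cells and below it in H/R cells with either length.

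**Figure D4:**
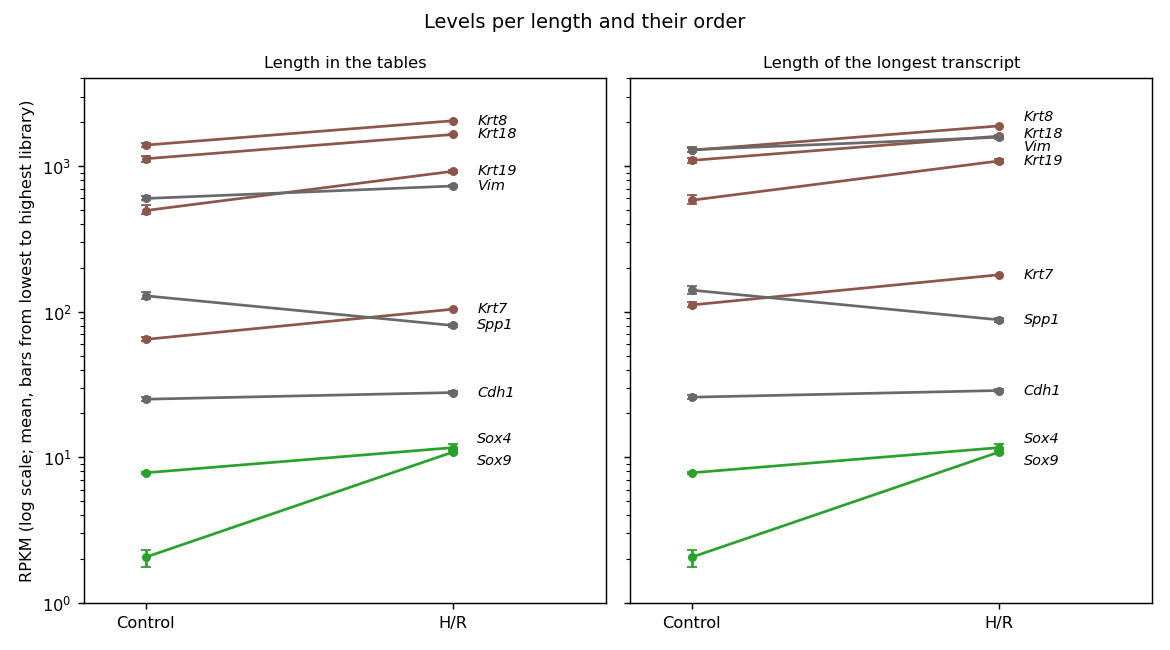
Mean RPKM of each gene (vertical axis, log scale) in control and H/R cells, with bars from the lowest to the highest of 3 libraries, using the gene length of the tables (left) or the longest GENCODE M21 basic protein-coding transcript (right). Keratins are brown, Sox genes green and the others grey, and on both sides the lines of Krt7 and Spp1 cross and Sox9 reaches the level of Sox4 after H/R.

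Other keratins of simple epithelia moved with the listed ones. Of 7 such genes, Krt7, Krt8, Krt18 and Krt19 included, 6 could be tested, and all 6 were higher and none lower, with a median log2 fold change of 0.74 against -0.01 for all tested genes, of which 31.0% were higher. Besides the 4 already described they were Krt80 (log2 fold change 0.91) and Krt20, a keratin of intestinal epithelium, which was also abundant at 408 ± 2.36 RPKM in control cells and 607 ± 9.71 in H/R cells (SD, n = 3 each, log2 fold change 0.68). Krt23 had 6 counts or fewer in every library. Of 13 keratins of stratified epithelia, 5 could be tested, at low counts, and Krt6a (log2 fold change 2.26), Krt15 (1.46) and Krt12 (1.37) were higher and Krt14 was lower (-0.70). However, 54.4% of the exon length of Krt12 overlaps another gene. Among 14 tested partners of intermediate filaments, 9 were higher and 4 lower, with a median of 0.30, whereas 31.0% of all tested genes were higher and 31.8% lower. Pkp2, a desmosomal plaque protein, went from 478 ± 18.1 to 1733 ± 57.3 normalized counts (SD, n = 3 each), a log2 fold change of 1.86 (standard error 0.056). Pkp1 (1.07) and Tchp, the keratin-binding protein trichoplein (0.64), rose too. The nuclear lamina genes Lmnb1 (-0.86) and Lmnb2 (-0.34) and the linker gene Macf1 (-0.35) fell on the log2 scale. Lmna, another lamina gene, was higher (0.21).

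Among the SOX family, 6 of 20 genes could be tested, of which 4 were higher (Sox9 and Sox4 included) and 2 lower, against 31.0% higher and 31.8% lower among all tested genes. The number lower was 1 without control replicate 2, without control replicate 3 or without H/R replicate 3, and DESeq2 gave 3 higher and 1 lower. Sox5 had a log2 fold change of 0.61 and Sox6, at low counts, one of 0.71. Sox11, a SoxC gene like Sox4, had one of -0.25 and Sox13 one of -0.40. Other biliary and progenitor genes, a list that holds none of the 10, moved in both directions. Of 27 tested, 8 were higher and 15 lower, beside the same shares of all tested genes, and their median of -0.22 lay below that of all genes at -0.01. Klf5, a transcription factor of epithelial progenitors, went from 428 ± 26.6 to 1193 ± 137 normalized counts (SD, n = 3 each, log2 fold change 1.48). Tnfrsf12a, the receptor of the cytokine TWEAK (0.93), and Jag1, a Notch ligand (0.58), were also higher on the log2 scale. The R-spondin receptor gene Lgr4 (-0.79), the cell cycle factor gene Foxm1 (-0.70) and the cilium-associated polycystin gene Pkd2 (-0.68) were lower. Genes at low counts fell further, among them Afp, with 38 to 47 counts under normoxia and 8 to 13 after H/R (-2.03). Several defining bile duct genes were hardly detected, and Cftr, Cldn7 and Aqp1 had at most 4 counts in any library. Prom1, Dlk1 and Mmp7 had no row and, like Epcam, were not analysed.

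Of 10 listed receptors of osteopontin, 7 could be tested, and 5 were higher and 1 lower, against 31.0% higher and 31.8% lower among all tested genes. Without control replicate 2 the numbers were 5 and 2. The integrin subunit gene Itgav went from 1575 ± 48.0 to 2901 ± 78.9 normalized counts (SD, n = 3 each, log2 fold change 0.88), with Itgb6 at 0.67, Itga5 at 0.44, Itgb3 at 0.40 and Cd44 at 0.25, while Itgb5 had a log2 fold change of -0.28. Of 16 tested genes of adherens junctions and desmosomes, 11 were higher and 4 lower, with a median log2 fold change of 0.23, where 31.0% of all tested genes were higher and 31.8% lower. Cdh1 was among the smaller of these changes, and Pkp2, Vcl (0.74) and Afdn (0.64) were the largest rises, although 39.9% of the exon length of Vcl overlaps another gene. The nectin genes Nectin1 (-0.76) and Nectin3 (-0.53), the plakophilin gene Pkp4 (-0.57) and the beta-catenin gene Ctnnb1 (-0.52) were lower. Another nectin gene, Nectin2, was higher (0.36). Of 15 tested genes of tight junctions and polarity, 8 were higher, among them Tjp1 (0.85), F11r (0.77) and Pard6b (0.70), and 4 were lower, beside the same 31.0% and 31.8% of all tested genes. Cldn2, a claudin that forms cation-selective pores, went from 1902 ± 42.8 to 555 ± 11.6 normalized counts (SD, n = 3 each), or -1.78 ± 0.053 on the log2 scale (standard error). Cldn6 (-0.41) and Patj (-0.35) were also lower.

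**Figure D5:**
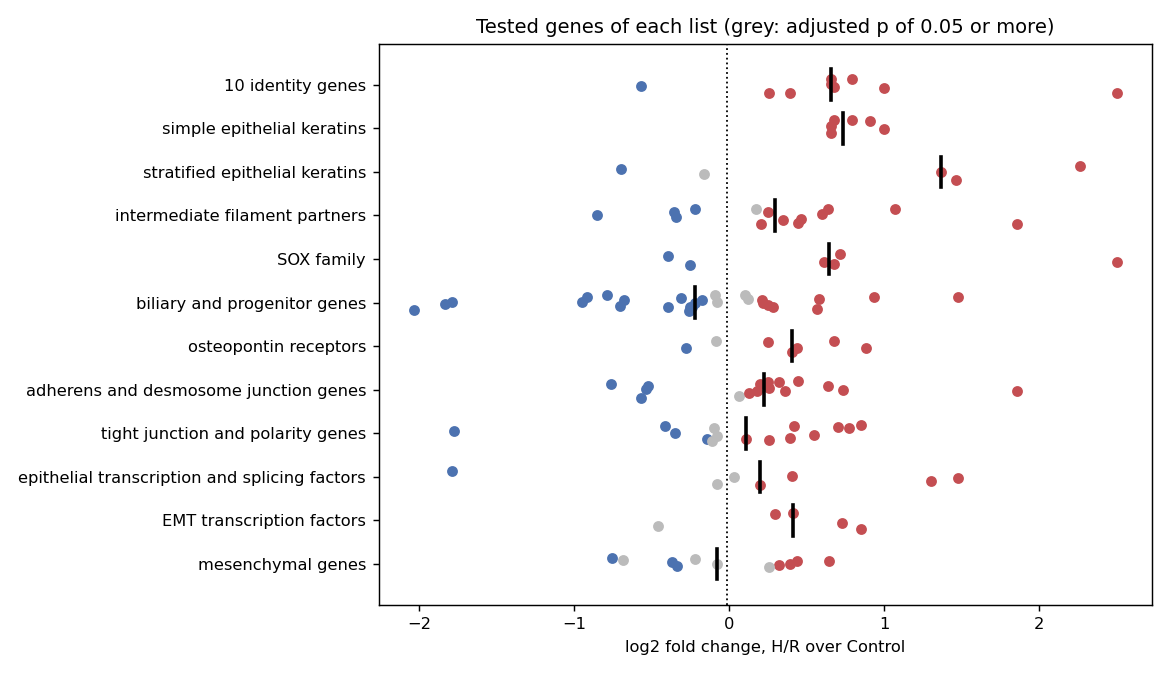
Log2 fold change, H/R over control (horizontal axis), of every tested gene on each list (rows), with red for higher and blue for lower at an adjusted p under 0.05, grey for the rest, a black bar for the median of the list and a dotted line for the median of all tested genes at -0.01. The tested simple keratins all lie to the right of 0, whereas the biliary and progenitor list has 8 higher and 15 lower genes and a median of -0.22.

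Transcription factors of epithelial and of mesenchymal state were examined beside Cdh1 and Vim. For both lists of factors the shares among all tested genes were 31.0% higher and 31.8% lower. Of 7 tested epithelial transcription and splicing factors, 4 were higher and 1 lower. Klf5 and Klf4 (1.30), both KLF factors of epithelia, Esrp2, an epithelial splicing regulator (0.40), and Foxa2 (0.20) were higher on the log2 scale, and Ehf, at low counts, was lower (-1.79). Of 5 tested factors linked to epithelial-mesenchymal transition (EMT), 4 were higher and none lower. The repressor of E-cadherin Zeb1 had a log2 fold change of 0.73, Tcf4 one of 0.41, Hmga2 one of 0.29 and Snai2, at low counts, one of 0.85, while Snai1 had between 5 and 14 counts a library and was not tested. The mesenchymal genes as a list moved in both directions, with 4 higher, 3 lower and 4 that did not pass, beside the same shares. Fn1 (fibronectin, 0.64), Itga5 (0.44), Cdh2 (N-cadherin, 0.32) and Vim were higher, and Col5a1 (-0.34), Lgals1 (-0.37) and S100a4 (-0.75) lower, but 51.7% of the exon length of S100a4 overlaps another gene.

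Depth was alike, with total counts of 21026650 to 21854790 per control library and 20438746 to 21742441 per H/R library. Control replicate 1 stood apart. It held liver transcripts such as Serpina1a (61 counts) and Apoa2 (60 counts) that had at most 1 count in each other library, and 131335 counts of the ribosomal row Rn18s-rs5 against 28347 to 43775 elsewhere. Among the 9 genes its normalized count was inside the range of the other control libraries for 5, above it for Krt18 and Sox4 and below it for Sox9 and Vim. Without that library the 9 log2 fold changes kept their directions and adjusted p under 0.05, and Sox9 had 2.41. The label of hepatocyte was checked with 18 hepatocyte genes, whose summed RPKM was 91.4 to 123 in the control and 65.7 to 72.7 in the H/R libraries. Of the 11 tested, 8 were lower and 1 higher, beside 31.8% and 31.0% of all tested genes. Without H/R replicate 1 the numbers were 5 lower and 1 higher, and without control replicate 1 they were 6 and 2. Hnf4a had a mean normalized count of 2912 in control cells, but Asgr1 and Tat had 2 counts or fewer in every library, and Cps1, Fgb and Cyp2e1 had at most 1 outside control replicate 1. Of 10 stellate cell or fibroblast genes 6 had at most 3 counts in every library (summed RPKM of all 10, 0.276 to 0.369 in control and 0.202 to 0.297 in H/R libraries), as did 6 of 8 endothelial genes (summed RPKM 0.0275 to 0.117 and 0.0398 to 0.0969). Of 10 macrophage and blood genes 5 did, the defining genes Ptprc, Adgre1 and Clec4f among them. The summed RPKM of these 10 was 1.37 to 1.63 in the control and 5.53 to 6.37 in the H/R libraries, mostly through Cd68 (16 to 22 counts, then 113 to 137), and its part in the changes of Spp1 and Vim was not tested.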

How the data were processed

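Total RNA was extracted from AML12 cells and sequenced as stranded mRNA libraries with paired ends. The authors mapped reads to GRCm38 with software printed as STRA. The submitters' processing notes also name Trimmomatic 0.36, featureCounts, Subread 1.5.1 and edgeR 3.12.1, and the gene annotation is not given in the sources used here. Each deposited table gives raw read counts per gene. The authors' RPKM column follows from count, gene length and library total (largest relative error 1.13e-06). Rows with 0 counts in all 6 libraries were not in the tables. Exons of 7571 rows overlap those of another row, and whether strand was used in counting is not stated.

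Counts of 3 H/R and 3 control libraries were compared in R 4.3.3 with edgeR 4.0.16 (filterByExpr, TMM, robust glmQLFit, glmQLFTest, Benjamini-Hochberg adjustment over all tested genes), without covariates. The thresholds were an adjusted p of 0.05 and, where stated, a fold change of 2. Standard errors were derived from the F statistic. Normalized counts are scaled by TMM to the mean effective library. The test was checked on simulated counts in which few genes changed, as many up as down. In these libraries 62.8% of tested genes were called, so that check does not cover how scaling behaves here. A count of 3 or fewer in every library was taken as the floor, which covers counting error only. Total counts of 20438746 to 21854790 set the precision. Chi-square per degree of freedom between replicates was 2.21 or more, so no pair agreed within counting error, which does not tell separate cultures from repeat libraries of 1 culture. It was at most 3.45 between H/R libraries and 5.89 between control replicates 2 and 3. Control replicate 1 gave 16.5 against control replicate 2 and 17.25 against control replicate 3.

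Alternatives were DESeq2 1.42.0, upper quartile scaling, library totals, no filter, at least 10 counts in every library, a replicate block, a non-robust fit, limma 3.58.1 on log2(RPKM + 1) and log2(RPKM + 0.1), a fold of 1.5, and leaving out each library. The genes, lists and tests were chosen with earlier results of these data known. The genes named are the listed 10, any gene whose exons overlap them, markers of cell types as levels, and from each list at most the 3 largest rises and 3 largest falls at an adjusted p under 0.05 and a mean normalized count of at least 100. Krt8-ps and the other genes named in the text, such as Krt20, Krt14, Snai2 and the bile duct genes at low counts, fall outside that rule and were named after their values were seen. Promoter windows were RefSeq's on GRCm38.p6 and were searched over their 250 upstream bases, and transcript lengths were from GENCODE M21.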

Additional observations from a re-analysis of the deposited data

How the results depend on the processing

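All 9 genes kept their direction and an adjusted p under 0.05 in each of the 15 alternatives run. The log2 fold change of Sox9 lay between 1.96 on log2(RPKM + 1) and 2.59, that of Krt19 between 0.90 and 1.05, that of Spp1 between -0.68 and -0.54, and that of Cdh1, the smallest, between 0.15 and 0.27. Sox9 and Krt19 passed both thresholds (2 genes), and Krt19 decided that number. Only 1 gene, Sox9, passed under upper quartile scaling, under library totals, with at least 10 counts in every library, with log2(RPKM + 1) or with log2(RPKM + 0.1), and between 1 and 2 with 1 library left out, being 1 without control replicate 1, control replicate 2 or H/R replicate 1. A fold change of 1.5 gave 6 genes, where a lower limit can only keep or raise the number, and Spp1 was just short of it at 1.49-fold. The share of all tested genes past 1.5-fold was not counted, so the 6 genes cannot be set against it. The difference in the ratio of Krt8 to Krt18, 0.00099 on the log2 scale, lay between -0.0134 and 0.0148 with 1 library left out, and was -0.00965 without control replicate 1, so it had no stable direction. The other 3 ratios kept theirs. The number of called genes of each list, both directions together, stayed within 1.5 times its value, and the biliary and progenitor list had 5 to 8 higher and 13 to 17 lower genes. No pairing by replicate number was seen, since deviations of same-numbered libraries correlated at -0.0444, 0.0065 and -0.0183, and with the replicate block 9 genes were again called, with a log2 fold change of 2.51 for Sox9.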

Other observations

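Beyond the listed keratins, every row whose symbol is Krt and a number was counted, a choice made after the data were seen. There were 43 such rows. Of these, 22 had at most 3 counts in every library and 13 could be tested, of which 10 were higher and 1 was lower after H/R at an adjusted p under 0.05 (edgeR), beside 31.0% and 31.8% of all tested genes. In 6 of the 43 rows the mean normalized count was at least 100, and these were Krt7, Krt8, Krt18, Krt19, Krt20 and Krt80, all higher. The largest rises were at low counts. Krt87, a hair keratin, had 5, 12 and 5 counts under normoxia and 65, 59 and 61 after H/R (log2 fold change 3.19). Krt6a, a keratin of stratified epithelium under stress, had 35, 18 and 39 counts under normoxia and 136, 135 and 131 after H/R (log2 fold change 2.26). In both genes the groups were apart. Krt15 (13, 14 and 11 counts, then 30, 31 and 35) and Krt12 (17, 13 and 12 counts, then 27, 35 and 37) were also higher, whereas Krt10 (103 to 122 counts, then 80 to 102) did not pass the test. Reads of Krt12 may belong to the gene that overlaps 54.4% of its exon length.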
